A study of Homo sapiens with 6 samples.

Results

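Aldehyde dehydrogenases are enzymes that oxidise aldehydes to carboxylic acids with NAD or NADP as the electron acceptor. The 10 genes described here are members of that family that have been linked to drug tolerance and stem-like cells: ALDH1A1, ALDH1A3, ALDH1B1, ALDH2, ALDH3A1, ALDH3A2, ALDH3B1, ALDH7A1, ALDH9A1 and ALDH18A1. They were taken by name out of 61552 genes in the expression tables, with earlier results of these data known. The human family holds 19 genes, and the other 9 are described after the listed ones.

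The cells were of NCI-H520, a long-established line from a human lung squamous carcinoma (genotype WT), kept in RPMI-1640 medium with fetal bovine serum. Total RNA was sequenced from 3 libraries given phosphate-buffered saline (PBS) and from 3 given cisplatin at 2 µM, each after 48 h. Cisplatin is a platinum drug that crosslinks DNA. By its title the series is about SOX2, a transcription factor of squamous lung tumours, and drug resistance. All libraries come from this 1 line, and the labels do not say whether replicates were separate cultures, so the p-values reflect just the spread among these 6 libraries, which may be technical. In bulk RNA, a change in the number of cells of a kind and a change in RNA per cell cannot be told apart.

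Aldehydes reach these enzymes from several sources. Retinal, made from retinol, is oxidised to retinoic acid, which acts through nuclear receptors. Lipid peroxidation, ethanol, fatty alcohols, lysine and polyamines give others. High aldehyde dehydrogenase activity, often measured with a fluorescent substrate, is used to sort stem-like tumour cells, and ALDH1A1 and ALDH1A3 are the members most often tied to that assay. In lung tumours ALDH3A1 is known for high levels, and ALDH3A1 and ALDH1A1 are known to inactivate some alkylating drugs.

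Library totals ran from 9121180 to 16724285 counts assigned to genes. Mitochondrially encoded genes took 4.15% to 6.05% of counts under PBS and 3.26% to 4.13% under cisplatin. Counts followed transcript length differently in the groups: the slope of a library's log2 CPM deviation on log2 transcript length was 0.03 to 0.13 under PBS, highest in PBS 3, and -0.10 to -0.05 under cisplatin. Each tested member is therefore also given after a correction for length. CPM is used here for counts after TMM scaling of the libraries. Of the squamous markers, SOX2, KRT5 and KRT6A were at or above 1 CPM in every library, whereas DSG3 had 0 counts throughout and TP63 had at most 3 in any library. KRT14 had at most 5 counts in a library and PKP1 at most 2. The 7 squamous markers summed to 289 to 335 CPM under PBS and 310 to 360 under cisplatin. SOX2 made up most of that sum, with means of 309 CPM under PBS and 323 under cisplatin. Of the lung adenocarcinoma markers, NKX2-1 had means of 4.07 CPM under PBS and 7.28 under cisplatin, while NAPSA had at most 1 count and SFTPB at most 3. Fibroblast markers summed to 10.52 to 15.3 CPM under PBS and 23.0 to 24.5 under cisplatin. Of these 6 genes COL1A1 was the member at 1 CPM or more in every library, and COL3A1 had 0 counts. Leukocyte markers summed to 0.670 to 1.32 and 3.30 to 4.09 CPM, with PTPRC and CD3E at 0. The part of these marker shifts in the results below was not tested.

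The sequences upstream of the RefSeq starts of the 6 called members are shown first. They are a description, and a link between sequence and direction of change was not tested. Each is the 150 bases before the RefSeq start on GRCh38.p14, 5′ to 3′ on the gene's strand, and capitals mark CCAAT (the letters of the CCAAT box) or GGGCGG (those of a GC box) on either strand. The 3 that rose come before the 3 that fell.
ALDH1A1: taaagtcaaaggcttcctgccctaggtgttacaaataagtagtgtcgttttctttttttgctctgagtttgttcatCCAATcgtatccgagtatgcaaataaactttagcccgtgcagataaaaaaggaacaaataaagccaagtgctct
ALDH7A1: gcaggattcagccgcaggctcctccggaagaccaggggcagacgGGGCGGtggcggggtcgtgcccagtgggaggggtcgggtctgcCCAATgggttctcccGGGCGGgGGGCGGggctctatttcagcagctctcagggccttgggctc
ALDH9A1: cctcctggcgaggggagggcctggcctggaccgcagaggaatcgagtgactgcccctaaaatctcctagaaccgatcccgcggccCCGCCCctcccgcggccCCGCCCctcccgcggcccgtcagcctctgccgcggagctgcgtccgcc
ALDH1A3: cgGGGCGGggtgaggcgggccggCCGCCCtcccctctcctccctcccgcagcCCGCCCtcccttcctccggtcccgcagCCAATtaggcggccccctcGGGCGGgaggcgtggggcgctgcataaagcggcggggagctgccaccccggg
ALDH1B1: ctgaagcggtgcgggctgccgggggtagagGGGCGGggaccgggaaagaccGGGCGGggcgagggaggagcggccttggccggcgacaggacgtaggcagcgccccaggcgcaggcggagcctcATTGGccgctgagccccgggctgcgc
ALDH18A1: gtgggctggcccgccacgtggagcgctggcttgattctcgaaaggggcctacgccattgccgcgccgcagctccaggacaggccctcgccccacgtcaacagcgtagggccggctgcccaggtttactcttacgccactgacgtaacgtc

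These windows lie at chr9:72953054-72953203 (minus strand) for ALDH1A1, chr5:126595220-126595369 (minus) for ALDH7A1 and chr1:165698563-165698712 (minus) for ALDH9A1. For the genes that fell they lie at chr15:100879681-100879830 (plus) for ALDH1A3, chr9:38392552-38392701 (plus) for ALDH1B1 and chr10:95656712-95656861 (minus) for ALDH18A1. The windows of ALDH1A1, ALDH7A1, ALDH9A1 and ALDH1A3 lie inside the gene spans given below, which reach upstream of these RefSeq starts. That of ALDH1B1 runs in part into its own span, which starts at 38392664. The ALDH1A1 window stood apart in base composition, with 38.0% G and C, at percentile 8.46 of 35116 promoter windows of this length. The other 5 had 66.7% to 79.3%, and the median of all windows was 60.0%. CCAAT occurred in ALDH1A1, ALDH7A1, ALDH1A3 and ALDH1B1, and in 23.5% of all windows. GGGCGG occurred in ALDH7A1, ALDH9A1, ALDH1A3 and ALDH1B1, and in 36.8% of all windows. ALDH18A1 held neither. TGACNNNGC (the core letters bound by NRF2, in 7.29% of all windows), TATAAA (6.71%) and ACAAT (the core letters of SOX sites, 15.6%) were in none of these 6. The searches covered both strands, and a match of letters is not evidence of binding. Of the 10 listed genes, 8 had an entry in the promoter table.

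**Figure D1:**
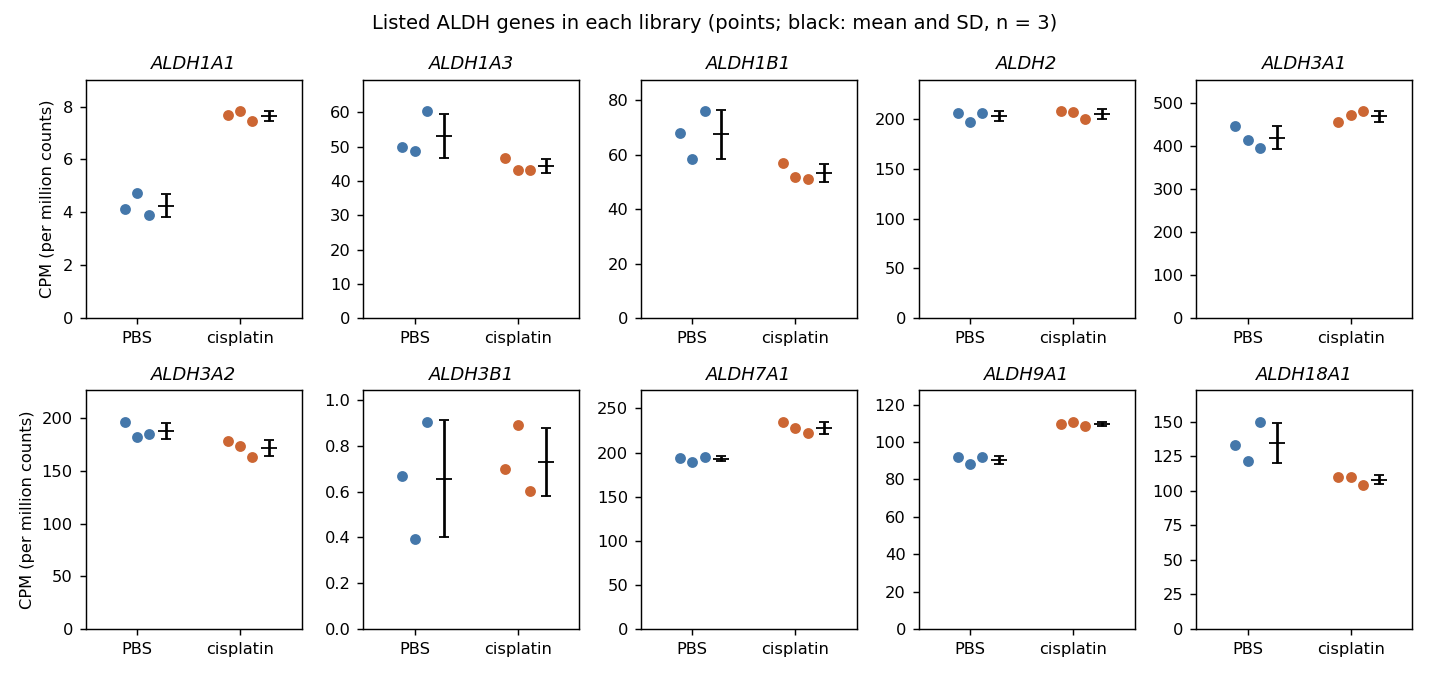
TMM-scaled CPM (y axis, linear) of each listed gene in the 3 PBS and 3 cisplatin libraries, with points for libraries and bars for the mean and SD of a group. ALDH1A1 went from 3.90 to 4.74 CPM under PBS to 7.45 to 7.84 under cisplatin, while ALDH2 overlapped between the groups.

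After cisplatin, 3 of the 9 listed genes that could be tested rose (ALDH1A1, ALDH7A1 and ALDH9A1), 3 fell (ALDH1B1, ALDH18A1 and ALDH1A3) and 3 did not pass the test (ALDH2, ALDH3A1 and ALDH3A2). ALDH3B1 was too low to test. A gene was called where the Benjamini-Hochberg adjusted p of edgeR's quasi-likelihood test, taken over all 15063 genes tested, was under 0.05. Over all genes tested, 38.2% were called, 18.9% higher and 19.3% lower. Of the members, 6 of 9 were called, split evenly by direction, as over all genes. In CPM the groups did not overlap for 4 members with cisplatin above (25.2% of all genes) and 4 with cisplatin below (24.5%). In TPM they did not overlap for ALDH1A1, ALDH9A1 and ALDH18A1 (40.4% of all genes in either direction). The median log2 fold change was 0.01 over these 9 and -0.00035 over all genes, and the median absolute change was 0.26 and 0.27. All changes but that of ALDH1A1 were under 1.5-fold. After the length correction, 2 members were higher and 2 lower, against 17.1% and 16.9% of all genes (34.0% in either direction).

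ALDH1A1 and ALDH1A3, the cytosolic enzymes that oxidise retinal to retinoic acid, were called in opposite directions, with the ALDH1A3 call at the threshold. ALDH1A1 lies on chromosome 9 (72900662 to 73080442 on GRCh38, minus strand, in GENCODE 29). It had 4.13, 4.74 and 3.90 CPM under PBS and 7.67, 7.84 and 7.45 under cisplatin, in the order of replicates 1 to 3, as throughout. Every cisplatin library was above every PBS library, although these values rest on counts of only 37 to 124. The rise was 1.79-fold (95% interval 1.42 to 2.25), 0.84 ± 0.15 as a log2 fold change (SE, n = 3 per group; adjusted p = 0.00132, edgeR). It was 0.78 after the length correction (edgeR adjusted p = 0.00194). The adjusted p was 0.258 in the test against a 1.5-fold change and at most 0.00647 with any library left out.

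ALDH1A3 lies on chromosome 15 (100877714 to 100916626, plus strand). Its values were 50.02, 48.7 and 60.4 CPM under PBS and 46.8, 43.3 and 43.1 under cisplatin. The groups did not overlap, and PBS 3 stood above the other 5 libraries. The log2 fold change was -0.26 ± 0.10 with an edgeR adjusted p of 0.0495, at the threshold. Without PBS 3 it was -0.16 (adjusted p = 0.208), without PBS 1 or a cisplatin library the adjusted p was 0.0566 to 0.141, and after the length correction -0.19 (adjusted p = 0.110); the call was lost in 16 of 19 alternatives. An antisense gene, ALDH1A3-AS1, covers 27.5% of the exonic bases of ALDH1A3, and whether counting used strand is not given in the sources used here. Its expected counts were 76.3, 123 and 132 under PBS and 69.6, 53.8 and 106 under cisplatin, -0.50 ± 0.16 as a log2 fold change (adjusted p = 0.0264, edgeR). Without strand, reads from the shared bases could belong to either gene.

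On TPM, which corrects for transcript length and so allows comparison between genes, ALDH1A3 stayed above ALDH1A1 in both groups. Deposited TPM was not rescaled between libraries as CPM was, which limits its comparison between the groups. The mean was 19.5 ± 4.37 TPM for ALDH1A3 against 2.64 ± 0.167 for ALDH1A1 under PBS, and 15.6 ± 0.606 against 4.46 ± 0.192 under cisplatin (SD, n = 3). The ALDH1A1 share of the summed TPM of the pair was 9.90% to 14.6% under PBS and 21.8% to 23.2% under cisplatin. The shares did not overlap, whereas the summed TPM of the pair did, at 22.2 ± 4.39 TPM under PBS and 20.04 ± 0.704 under cisplatin.

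The mitochondrial enzymes ALDH2 and ALDH1B1 both take acetaldehyde. ALDH2, on chromosome 12 (111766887 to 111817529, plus strand), had 206, 197 and 207 CPM under PBS and 209, 207 and 200 under cisplatin. The groups overlapped in part, and the fold change of 1.01 had a 95% interval of 0.913 to 1.12 (edgeR adjusted p = 0.892). With the length correction its log2 fold change was 0.02 (adjusted p = 0.809). ALDH1B1, on chromosome 9 (38392664 to 38398661, plus strand), had 67.9, 58.3 and 76.1 CPM under PBS and 57.1, 52.0 and 51.0 under cisplatin. Each cisplatin library was below each PBS library, with PBS 2 and cisplatin 1 close together. The fold was 0.790 (0.679 to 0.920), -0.34 ± 0.10 as a log2 fold change (adjusted p = 0.0189, edgeR), and -0.30 after the length correction (adjusted p = 0.0244). The call was lost without PBS 1 (adjusted p = 0.0511), PBS 3 (0.0799), cisplatin 2 (0.0576) or cisplatin 3 (0.0725).

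ALDH3A1, ALDH3A2 and ALDH3B1 act on medium-chain, aromatic and fatty aldehydes. ALDH3A1, an enzyme of lipid peroxidation products that is also abundant in the cornea, was the most abundant listed gene: 448, 416 and 396 CPM under PBS and 457, 472 and 483 under cisplatin. All cisplatin values were above all PBS values, but PBS 1 came close to cisplatin 1. The fold was 1.12 (1.004 to 1.25) and did not pass the test (edgeR adjusted p = 0.0936), and its log2 fold change went from 0.16 to 0.05 with the length correction. ALDH3A2, the fatty aldehyde dehydrogenase of the endoplasmic reticulum, had 197, 182 and 185 CPM under PBS and 179, 173 and 163 under cisplatin. Here too the groups did not overlap and the test was not passed (log2 fold change -0.13 ± 0.07, edgeR adjusted p = 0.163; -0.11 with the length correction, adjusted p = 0.237). Non-overlap alone was common, at 49.7% of all genes tested. The 2 genes lie on chromosome 17, ALDH3A2 at 19648136 to 19677598 (plus strand) and ALDH3A1 at 19737984 to 19748943 (minus strand), with 60385 bases between them. ALDH3B1, on chromosome 11 (68008578 to 68029282), had 6, 6 and 13 counts under PBS and 7, 10 and 10 under cisplatin, too few to read a difference.

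ALDH7A1 and ALDH9A1 belong to catabolic and synthetic steps of amino-acid derivatives: ALDH7A1 (antiquitin) oxidises the semialdehyde of lysine breakdown, and ALDH9A1 oxidises trimethylaminobutyraldehyde in carnitine synthesis. ALDH7A1, on chromosome 5 (126531200 to 126595418, minus strand), had 194, 190 and 195 CPM under PBS and 235, 227 and 222 under cisplatin. The PBS libraries were close to each other and all lay below the cisplatin libraries. The log2 fold change was 0.24 ± 0.07 (1.18-fold, 1.07 to 1.31; edgeR adjusted p = 0.0133). After the length correction it was 0.16 (adjusted p = 0.0534), and without cisplatin 1 the adjusted p was 0.0718. Its pseudogene ALDH7A1P1 had 7 to 18 counts in a library.

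ALDH9A1, on chromosome 1 (165662216 to 165698863, minus strand), had 91.8, 88.1 and 91.9 CPM under PBS and 110, 111 and 109 under cisplatin. The groups did not overlap. Its fold was 1.21 (1.09 to 1.34), 0.28 ± 0.07 as a log2 fold change (adjusted p = 0.00768, edgeR) and 0.25 with the length correction (adjusted p = 0.00831). No left-out library ended the call (highest adjusted p = 0.0347).

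ALDH18A1 differs in role: it makes pyrroline carboxylate from glutamate, on the way to proline and ornithine, and its dehydrogenase domain works as a reductase. On chromosome 10 (95605929 to 95656706, minus strand), it had 133, 122 and 150 CPM under PBS and 110, 110 and 105 under cisplatin. Every cisplatin library was below every PBS library, and PBS 3 was highest. The fold was 0.801 (0.705 to 0.911), -0.32 ± 0.08 as a log2 fold change (adjusted p = 0.0110, edgeR) and -0.24 with the length correction (adjusted p = 0.0218). The highest adjusted p with a library left out was 0.0461.

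**Figure D2:**
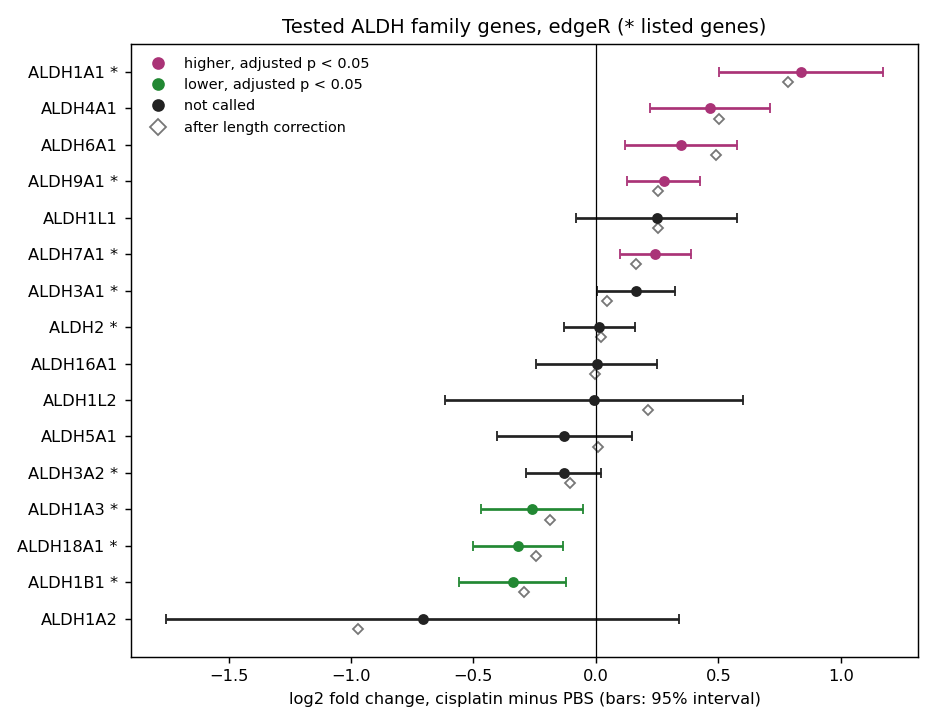
log2 fold change of cisplatin over PBS (x axis) for each tested family gene, with the 95% interval, from edgeR; colours show genes called higher, lower or not called, open diamonds the length-corrected value, and asterisks the listed genes. ALDH1A1 (0.84) lies farthest to the right among the listed genes and ALDH1B1 (-0.34) farthest to the left.

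In order of level, the TPM of the listed genes under PBS was 361 ± 19.9 for ALDH3A1, 136 ± 10.53 for ALDH7A1, 103 ± 16.7 for ALDH2, 82.8 ± 6.58 for ALDH3A2, 49.5 ± 10.02 for ALDH18A1, 49.0 ± 4.89 for ALDH9A1, 28.1 ± 5.71 for ALDH1B1, 19.5 ± 4.37 for ALDH1A3, 2.64 ± 0.167 for ALDH1A1 and 0.340 ± 0.332 for ALDH3B1 (SD, n = 3). ALDH3A1 stood clear of the rest, at percentile 97.7 of the tested genes, with 339 genes higher. In this order ALDH2 and ALDH3A2, ALDH18A1 and ALDH9A1, and ALDH1B1 and ALDH1A3 overlapped between neighbours.

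Under cisplatin the order changed at 1 place. ALDH9A1, at 57.8 ± 3.18 TPM, was above ALDH18A1, at 37.2 ± 2.14, with no overlap of libraries. The ratio of ALDH9A1 to ALDH18A1 TPM was 1.02, 1.09 and 0.897 under PBS and 1.43, 1.49 and 1.76 under cisplatin. The summed TPM of the 10 genes did not separate the groups, at 832 ± 76.0 under PBS and 827 ± 9.96 under cisplatin. ALDH3A1 made up 43.5% ± 1.83 of that sum under PBS and 45.9% ± 0.758 under cisplatin.

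**Figure D3:**
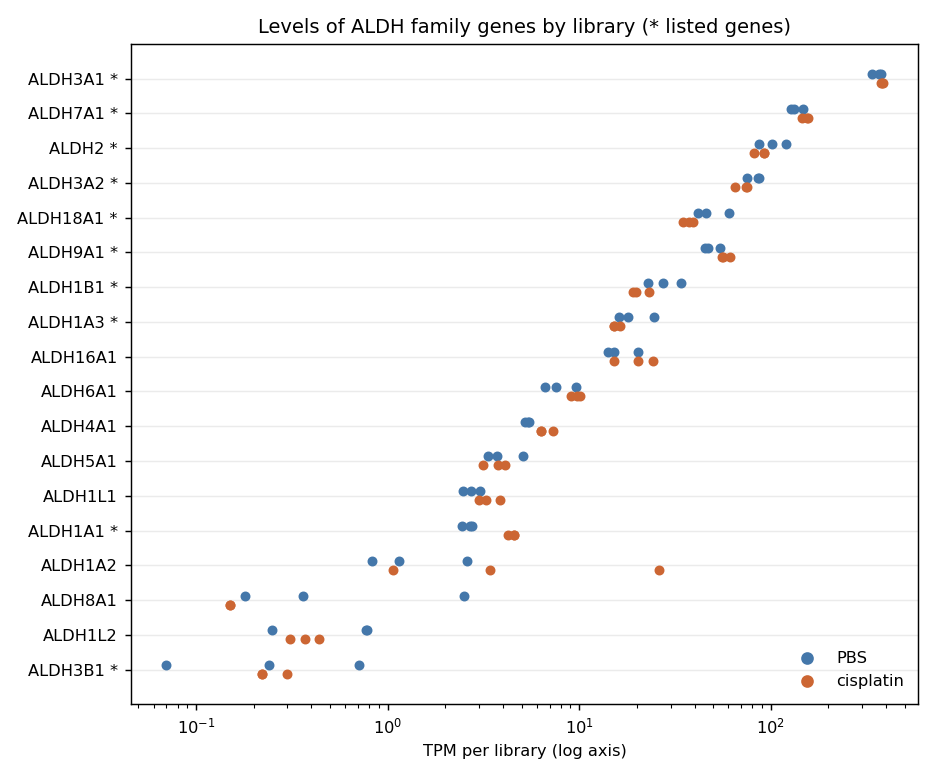
Deposited TPM (x axis, log scale) of the aldehyde dehydrogenase genes (y axis, ordered by PBS mean) in each library; values of 0 are not drawn, and asterisks mark listed genes. ALDH3A1 lies on top in all 6 libraries (mean 361 TPM under PBS and 379 under cisplatin).

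The direction of change ran with transcript length among the listed genes. The 4 shortest tested members (ALDH3A1 at 1608 bases, ALDH7A1 at 1884, ALDH1A1 at 2096 and ALDH9A1 at 2324, as mean deposited transcript lengths) had log2 fold changes above 0. The 4 longest (ALDH3A2 at 2810, ALDH1B1 at 2982, ALDH1A3 at 3296 and ALDH18A1 at 3331) had values below 0. Over all 15063 genes the slope of log2 fold change was -0.15 per log2 unit of length. Corrected values for the 9 members kept their signs, with the sizes given above, and the part of length in these changes was not tested further.

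**Figure D4:**
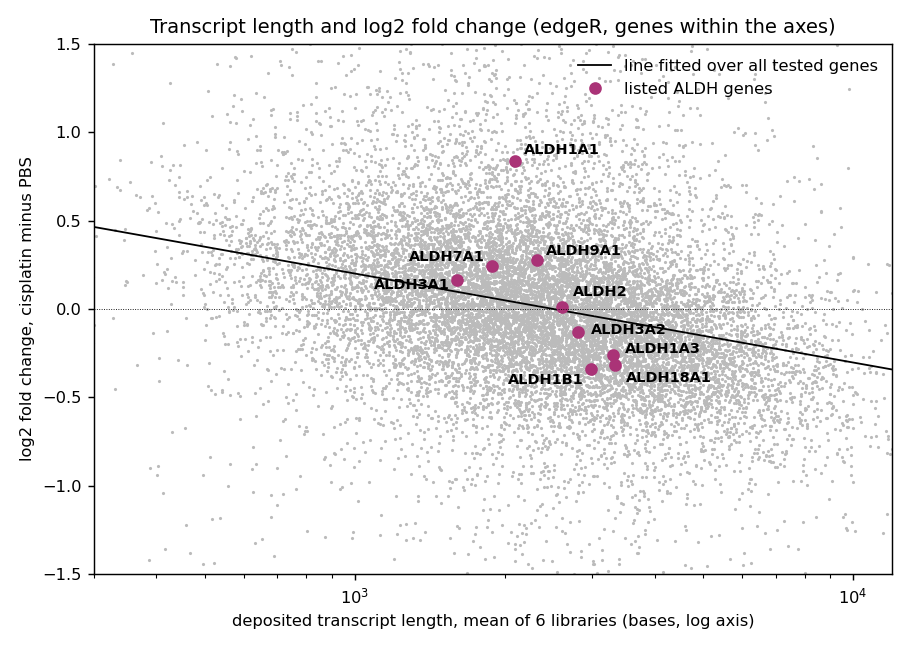
log2 fold change (y axis) against mean deposited transcript length (x axis, log scale) for the tested genes within the axes as grey points, with a line fitted over all tested genes and the listed genes named. The 4 listed genes shorter than the median of tested genes (2360 bases) lie above 0, ALDH2 lies at 0.01, and the 4 longest lie below 0.

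Of the other 9 family genes 7 were tested, 2 rose and 0 fell, with and without the length correction (18.9% and 19.3% of all genes did without it). In the edgeR test 0 were lower at an unadjusted p under 0.05, and DESeq2 and limma-voom called 0 lower. These tests use the same counts, and the share of all genes at these settings is not given here. ALDH4A1, the mitochondrial enzyme that turns the same pyrroline carboxylate into glutamate, had 13.4, 11.6 and 11.9 CPM under PBS and 16.8, 16.2 and 17.5 under cisplatin, without overlap. Its log2 fold change was 0.47 ± 0.11 (edgeR adjusted p = 0.00657). It therefore rose where ALDH18A1, of the opposite step, fell. In GENCODE 29, 41.1% of the exonic bases of ALDH4A1 are shared with AL080251.1 on the same strand, a gene that the expression tables do not list. ALDH6A1, which oxidises methylmalonate semialdehyde in valine breakdown, had 22.9, 30.4 and 28.9 CPM under PBS and 34.6, 34.9 and 35.7 under cisplatin. This log2 fold change was 0.35 ± 0.11 (edgeR adjusted p = 0.0218), and the call was lost without PBS 1 (adjusted p = 0.0676), cisplatin 1 (0.0550) or cisplatin 3 (0.0629). It shares 10.03% of its exonic bases with BBOF1.

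ALDH1L1, a folate enzyme, was at 0.25 in log2 fold change (adjusted p = 0.219, edgeR). ALDH5A1, of the GABA pathway, had -0.13 (adjusted p = 0.453). ALDH1L2 was at -0.01 (adjusted p = 0.985) and ALDH16A1 at 0.0039 (adjusted p = 0.983). ALDH1A2, the third retinal-oxidising enzyme, had 0.421 to 1.46 CPM and a value of -0.71 ± 0.48 (adjusted p = 0.269). ALDH3B2 had 0 counts in all libraries and ALDH8A1 at most 6, so neither was tested.

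Around the retinal-oxidising enzymes, of 27 listed retinoid genes 19 were tested, 7 rose and 0 fell (18.9% and 19.3% of all genes did), with and without the length correction. On the same counts 0 were lower at an unadjusted edgeR p under 0.05, by DESeq2 or by limma-voom. For these settings the share of all genes is not given here. STRA6, the membrane receptor for retinol-binding protein, had 60.1, 59.5 and 59.8 CPM under PBS and 102, 93.7 and 99.6 under cisplatin, which is 0.72 ± 0.07 on the log2 scale (SE; adjusted p = 3.18e-05 by edgeR). DHRS3, which reduces retinal back to retinol, rose by 1.13 ± 0.14 (adjusted p = 0.000106). SDR16C5, which oxidises retinol to retinal, rose by 0.91 ± 0.12 (adjusted p = 0.000141). Enzymes of both directions were thus among those that rose. Named after their values were seen, CYP26A1, a retinoic acid hydroxylase, rose by 1.38 ± 0.39 on the log2 scale from a PBS level of 0.335 to 0.658 CPM, and the receptor RARG rose by 0.60 ± 0.12 (edgeR adjusted p = 0.0159 and 0.00257). CYP26A1 was not called without PBS 1 (adjusted p = 0.0524) or cisplatin 1 (0.0861). Their relatives were mixed. The hydroxylase CYP26B1 (-0.23) and the receptors RARA (-0.02), RARB (-0.01) and RXRA (-0.26) were not called. The receptor RXRB rose by 0.33 (adjusted p = 0.0134 by edgeR). Without PBS 2, 1 retinoid gene was called lower.

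Enzymes of alcohol and carbonyl metabolism share substrates with the aldehyde dehydrogenases. Of 26 listed 16 were tested, 10 rose and 0 fell (18.9% and 19.3% of all genes did), and after the length correction 5 rose and 2 fell (17.1% and 16.9%). Without the length correction 0 were lower at an unadjusted edgeR p under 0.05, by DESeq2 or by limma-voom. Again these tests use the same counts, and the share of all genes is not given. ADH1C, an alcohol dehydrogenase, had 16.1, 14.9 and 15.3 CPM under PBS and 25.9, 26.7 and 28.4 under cisplatin, which is 0.82 ± 0.10 on the log2 scale (SE; adjusted p = 8.73e-05 by edgeR). AKR1C1 rose by 0.51 ± 0.08 (adjusted p = 0.00057), though its near-identical relatives make the split of reads uncertain. Of these, AKR1C2 (0.20, edgeR adjusted p = 0.0557) and AKR1C3 (0.12, edgeR adjusted p = 0.212) were not called. CBR1, a carbonyl reductase, rose by 0.35 ± 0.07 (adjusted p = 0.00304) but was at 0.16 with the length correction (adjusted p = 0.0911).

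Around ALDH18A1, 11 of 14 listed proline and ornithine genes were tested, with 1 higher and 4 lower, with and without the length correction, against 18.9% and 19.3% of all genes without it. ALDH18A1 is not on that list. ODC1, the ornithine decarboxylase that starts polyamine synthesis, had 219, 214 and 215 CPM under PBS and 155, 151 and 137 under cisplatin, which is -0.55 ± 0.07 on the log2 scale (SE; adjusted p = 0.000159 by edgeR). GLUD1, glutamate dehydrogenase, was at -0.46 ± 0.09 (adjusted p = 0.00255). GLUD1 has a near-identical copy on the list, GLUD2 (-0.46, edgeR adjusted p = 0.0366), so reads may be split between them. Both are counted among the 4 lower genes, and shared reads may enter both. The arginase ARG2 rose by 0.33 ± 0.09 (adjusted p = 0.00996). ARG2 lost its call without cisplatin 1 (adjusted p = 0.0506), and 2 genes of the list were lower without cisplatin 3.

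Near ALDH7A1 and ALDH9A1, 11 of 16 listed lysine, choline, carnitine and polyamine genes were tested, with 3 higher and 1 lower, against 18.9% and 19.3% of all genes (4 and 1 with the length correction, against 17.1% and 16.9%). SAT1, which acetylates polyamines for breakdown, had 283, 296 and 260 CPM under PBS and 605, 585 and 572 under cisplatin, 1.07 ± 0.07 as a log2 fold change (adjusted p = 3.25e-06, edgeR). SMOX, spermine oxidase, rose by 1.04 ± 0.14 (adjusted p = 0.000157) and MAOB, a monoamine oxidase, by 0.62 ± 0.12 (adjusted p = 0.00181). These oxidases release aldehydes. AADAT, an aminotransferase of lysine breakdown, was at -0.45 ± 0.15 (adjusted p = 0.0349), a call lost without PBS 2 (0.152), cisplatin 2 (0.101) or cisplatin 3 (adjusted p = 0.0995).

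For fatty aldehydes, near ALDH3A2, 14 of 17 listed genes were tested, with 3 higher and 0 lower, against 18.9% and 19.3% of all genes. With the length correction 2 were higher and 1 lower, against 17.1% and 16.9%. Without it 0 were lower at an unadjusted edgeR p under 0.05, by DESeq2 or by limma-voom. These use the same counts, and the share of all genes is not given. SGPL1, the lyase that releases hexadecenal from sphingosine phosphate, had 142, 137 and 160 CPM under PBS and 213, 218 and 201 under cisplatin, which is 0.52 ± 0.08 on the log2 scale (SE; adjusted p = 0.000384 by edgeR). HACL1, which cleaves branched acyl chains to aldehydes, rose by 0.69 ± 0.12 (adjusted p = 0.000948), and PHYH, of the same pathway, by 0.37 ± 0.11 (adjusted p = 0.0205). The PHYH call was lost without PBS 1, PBS 3, cisplatin 2 or cisplatin 3 (adjusted p = 0.0503 to 0.0661). SGPL1 and HACL1, which release fatty aldehydes, rose, while ALDH3A2, which oxidises them, did not pass the test; the difference between these changes was not tested.

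Among 16 listed stem-like cell markers 11 were tested, with 2 higher and 2 lower, shares close to the 18.9% and 19.3% of all genes. With the length correction 4 were higher and 3 lower (17.1% and 16.9% of all genes). CD24, a surface glycoprotein, had 164, 171 and 152 CPM under PBS and 226, 240 and 235 under cisplatin, which is 0.53 ± 0.07 on the log2 scale (SE; adjusted p = 0.000219 by edgeR). THY1 rose by 1.49 ± 0.40 (adjusted p = 0.0116) from a PBS level of 0.349 to 0.670 CPM. BMI1, of the polycomb complex, was at -0.40 ± 0.12 (adjusted p = 0.0253) and MYC at -0.25 ± 0.08 (adjusted p = 0.0259). Neither direction was shared by the whole list. With any 1 library left out, 1 to 2 of the list were higher and 0 to 1 lower. THY1 was lost without PBS 3 (adjusted p = 0.0528) or cisplatin 1 (0.0652). BMI1 was lost without PBS 2, PBS 3, cisplatin 1 or cisplatin 3 (adjusted p = 0.0756 to 0.115). MYC was lost without any library but PBS 2 (adjusted p = 0.0575 to 0.0899).

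**Figure D5:**
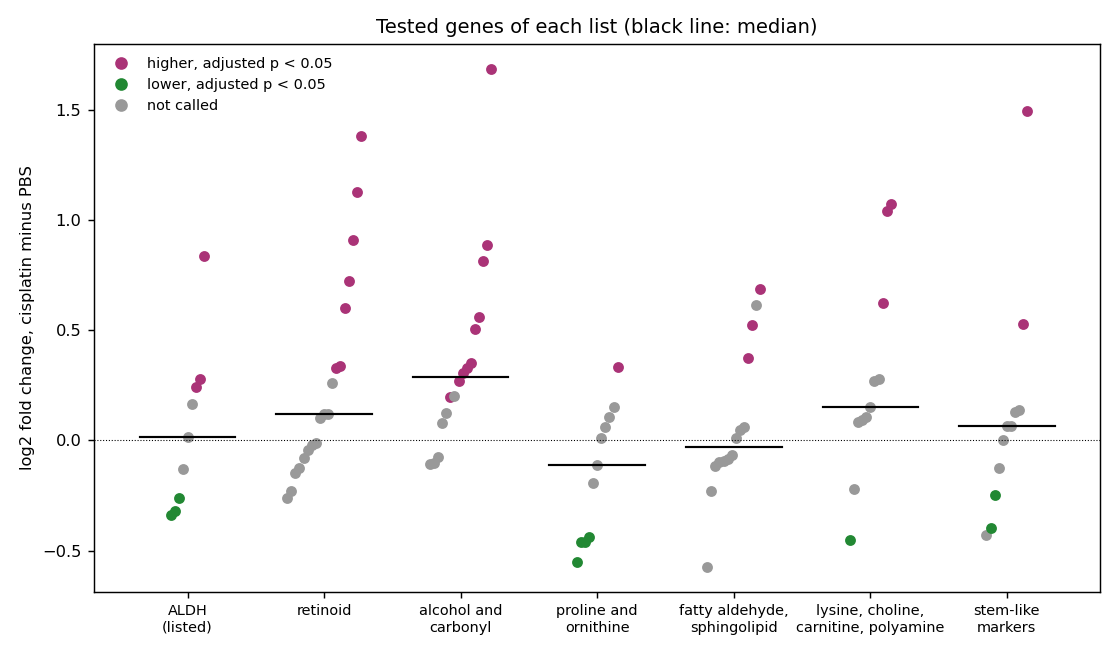
log2 fold change (y axis) of every tested gene in each list, with colours for genes called higher, lower or not called and a black line at each list's median. Retinoid genes reach 1.38, alcohol and carbonyl genes 1.68 and stem-like markers 1.49. These highest values are from CYP26A1, AKR1B10 (2 to 18 counts in a library) and THY1, all low in level under PBS. The retinoid, alcohol and carbonyl, and fatty aldehyde lists have no called member below 0. Proline and ornithine genes reach down to -0.55 in a called gene, and fatty aldehyde genes to -0.57 in a gene not called.

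Genes with the pattern most like that of ALDH1A1 were sought among 10537 protein-coding genes by Pearson r of log2 CPM over the 6 libraries. They were TM4SF1 (r = 0.999), a membrane protein, PLEK2 (0.998) and NUSAP1 (0.998), a spindle protein. For ALDH1B1 they were FTSJ1 (0.996), PFAS (0.993), a purine synthesis enzyme, and CELSR1 (0.992). FTSJ1 itself did not pass the test (-0.23 ± 0.09 on the log2 scale, edgeR adjusted p = 0.0718). CELSR1 did, at -0.49 ± 0.12, but lost the call with the length correction (-0.23) and on log2 of TPM plus 1 (-0.036). The points are 6 libraries that fall into their groups, so these values are a description and carry no test. PLEK2 had 5.81, 6.77 and 5.58 CPM under PBS and 11.96, 13.1 and 11.6 under cisplatin.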

How the data were processed

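NCI-H520 RNA from 3 PBS and 3 cisplatin libraries was measured, 1 table per library. The authors deposited expected counts per gene, not normalized, beside TPM values and transcript lengths, with RSEM's column names, per the file headers. Deposited FPKM was not used. Alignment used STAR 2.7.9 on GRCh38, per the submitters' processing notes; for the quantifier's version, its annotation and its strand setting, nothing is stated (not given in the sources used here). After rounding, edgeR 4.0.16 (R 4.3.3) tested these counts (filterByExpr at 10 counts and a total of 15, TMM, quasi-likelihood test on group, Benjamini-Hochberg over 15063 genes). Standard errors are the log2 fold change over the square root of F. Library totals of 9121180 to 16724285 counts bound the counting error, and the spread between the 3 libraries of a group adds to it. The scripts were tested on simulated data with fewer changed genes, changes of 1.5-fold or more and no length effect. That setting does not cover the smaller changes described here.

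Symbols (61399 genes) came from a gene name table, positions (58352 genes) and exonic overlaps from GENCODE 29, and upstream sequences from RefSeq, all on GRCh38. The length correction is a per-library lowess offset (span 0.3) of log2 CPM on log2 length. No 2 libraries agreed within sampling noise (chi-square per degree of freedom 2.83 to 18.5). Alternatives were other scalings and filters, DESeq2 1.42.0, limma 3.58.1 (voom, and on log2 of TPM plus 1 or 0.1), glmTreat at 1.5-fold, a replicate block and leaving out each library.

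The members and lists were chosen with earlier results of these data known. Named were all family genes and up to 3 called genes per direction with the smallest adjusted p in each list. So were the 3 most similar genes (mean at least 5 CPM) to the called members with the largest change each way. CYP26A1 and RARG were added after their values were seen, and the relatives given beside them are not counted among the named genes. GLUD2, AKR1C2, AKR1C3 and AKR1B10 are not counted either. Of the genes that this rule takes, 1 is not reported here.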

Additional observations from a re-analysis of the deposited data

How the results depend on the processing

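Of 19 alternatives to the edgeR test, 16 called 2 or 3 listed genes higher, as before, and 12 called 2 or 3 lower. The test against a 1.5-fold change called 0 higher and 0 lower and 481 genes in all, against 5752; limma on TPM plus 0.1 and plus 1 called 1 higher and 0 lower each, and for all genes called 2815 and 2861. Leaving out 1 library gave 2 to 3 higher and 1 to 3 lower (1 without PBS 1, PBS 3, cisplatin 2 or cisplatin 3), and 4205 to 5283 genes in all. On TPM, ALDH1A1 alone of the 6 called members kept its call. On TPM plus 0.1 and plus 1, ALDH2 was at -0.21 in each and ALDH1A2 at 1.70 and 1.38, and THY1 at -0.00033 on TPM plus 1. In these TPM fits the median of all genes was itself -0.086 and -0.071, against -0.00035 in the edgeR test. Near 0, ALDH1L2 turned to 0.0054 with total count scaling, 0.012 with upper quartile scaling and 0.21 with the length correction, and ran from -0.19 to 0.20 with a library left out. ALDH5A1 turned to 0.0081 and ALDH16A1 to -0.0046 with the length correction, and ALDH16A1 ran from -0.14 to 0.11 with a library left out. The cause was not tested for any of these. With the replicate number as a block, 5819 genes were called, of which 5520 were also called without it; ALDH1A3 was at an adjusted p of 0.0505, and ALDH16A1 at -0.0088. Deviations of same-numbered libraries correlated at 0.0658, 0.1227 and -0.076, so the numbers were not shown to pair the libraries. Over 29 named genes outside the family, 466 of 549 values kept direction and call. Counts were low for ALDH1A1 (37 to 124) and ALDH3B1 (6 to 13), which limits their precision.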

Other observations

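The deposited transcript length of ALDH16A1 differed between the groups without overlap, at 2867, 2731 and 2491 bases under PBS and 2089, 2385 and 2036 under cisplatin, which 15.8% of all tested genes also did. Its CPM overlapped between the groups. ALDH1A2 had 6 counts in cisplatin 2 beside a deposited length of 250.29 bases and 26.02 TPM, against 0.83 to 3.44 TPM in the other 5 libraries, so its TPM in that library rests on those few counts.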
